A study of Caenorhabditis elegans with 2 samples.

Results

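The genes described here were listed for the passage from G1 into S phase in Caenorhabditis elegans. The list is wider than G1/S control: cdk-1 is the kinase of mitotic entry, pcn-1 an S-phase gene, and cdk-5 is known from neurons. The data are the positions of the bZIP transcription factor JUN-1, the Jun member of worm AP-1, around them. The members were chosen by name as 10 G1/S control genes out of 19973 nuclear protein-coding genes: lin-35, efl-1, dpl-1, cyd-1, cye-1, cdk-4, cdk-1, cdk-5, cki-1 and pcn-1. All 10 were found once in the gene annotation (Ensembl release 115, assembly WBcel235, the coordinates that ce11 names). For each gene, every peak summit from 5 kb upstream of the annotated start to the gene end was collected.

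Binding was mapped by chromatin immunoprecipitation and sequencing (ChIP-seq) in whole larvae of the first stage (L1), male and female pooled, with 2 biological replicates in 1 group and no second condition. The animals are of strain OP234, which carries the unc-119(ed3) III mutation and the transgene wgIs234, and the label of the target is eGFP-jun-1. The 2 biosamples share 1 donor label, their age is given as unknown, and what drives the transgene is not given in the sources. Whole larvae mix all cell types, so a peak at a cell cycle gene cannot be placed in dividing or resting cells.

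In animal cells the retinoblastoma protein sits on E2F-DP dimers at promoters of S-phase genes and keeps them quiet. Cyclin D with its kinase partner phosphorylates the retinoblastoma protein, E2F targets such as cyclin E and the replication clamp are then transcribed, and inhibitors of the p27 type hold the kinases back. In the worm, lin-35 is the retinoblastoma gene, efl-1 and dpl-1 encode the E2F and DP partners, and cki-1 is known for holding blast cells of arrested L1 larvae out of the cycle.

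The deposited lists held 28101 peaks for replicate 1, 30000 for replicate 2 and 19646 for both replicates pooled, background included. A list thresholded by the irreproducible discovery rate (IDR) held 2305 peaks. The signal is the authors' own value per peak, without a stated unit, and serves here to rank peaks within a list. Ratios of the signals of the 2 replicates are given as description only, since the scaling of the signal is unknown. In the pooled list it ran from 7.93 to 569 with a median of 11.4, and the 2305 IDR-thresholded peaks were exactly the pooled peaks at or above 28.4. Most peaks had 1 fixed width (344 bp in 96.2% of IDR-thresholded peaks), so most summits are the middle of such an interval. No read counts are in the lists, so depth and counting error are unknown and no difference was tested.

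JUN-1 had an IDR-thresholded summit in the window of 6 of the 10 genes, namely lin-35, efl-1, cye-1, cdk-4, cdk-5 and pcn-1, whereas 18.6% of all protein-coding genes had one. The same 6 had such a summit in the narrower promoter window, from 1000 bp upstream to 200 bp downstream of the start, where the share of all protein-coding genes was 8.42%. The median window of the 10 genes was 7.86 kb, against 7.03 kb over all protein-coding genes. Their windows held 8 IDR-thresholded summits, where the average rate of their chromosomes would give 2.17. Farther upstream than 1 kb, none of the 10 genes had an IDR-thresholded summit.

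**Figure D1:**
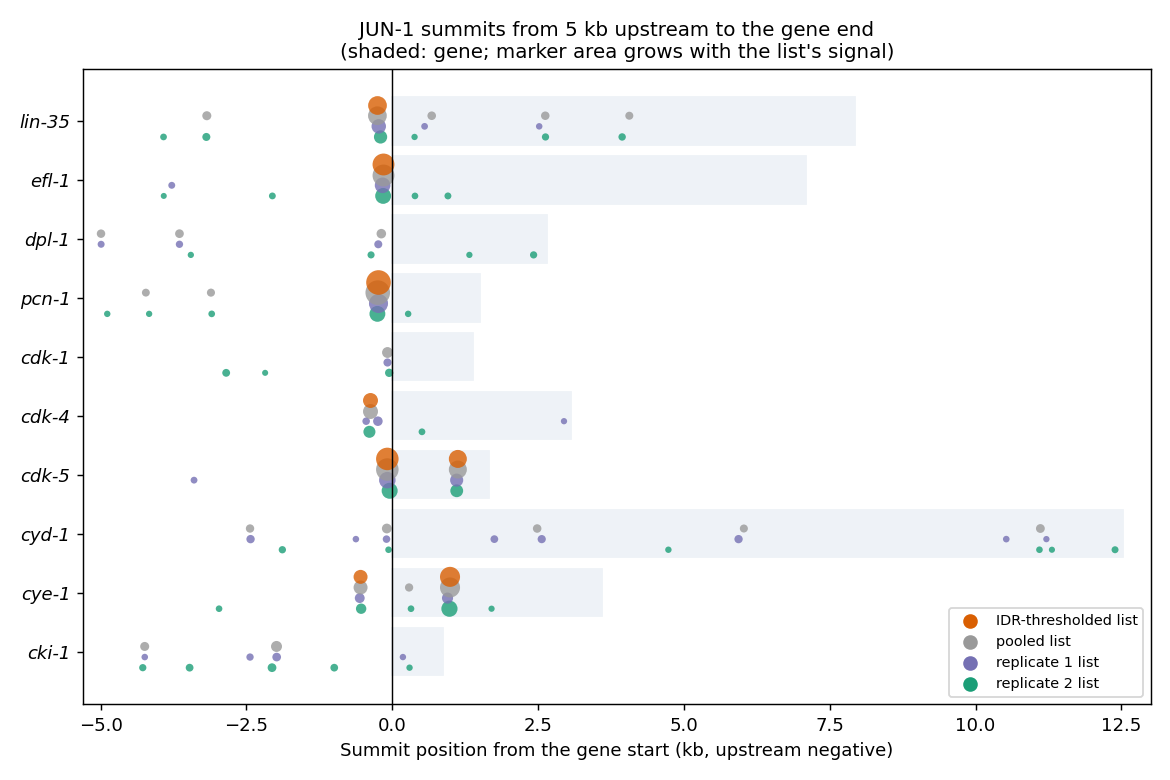
Summits of the 4 lists around each of the 10 genes, by distance from the gene start in kb (x axis, upstream negative); shading marks the gene and marker area grows with the signal of the list. The 8 IDR-thresholded summits lie between 544 bp upstream and 1124 bp downstream of a start, and dpl-1, cdk-1, cyd-1 and cki-1 have none.

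The 8 peaks ranged from weak to strong within the IDR-thresholded list, from rank 1807 to rank 210 of 2305. Their signals ran from 33.7 to 112 with a median of 68.4, where the median of all IDR-thresholded peaks was 44.7, and 6 of the 8 were among the stronger 1152. The start of another protein-coding gene was nearer for 4 of the 8 summits, and the start of another gene of any kind for 5. When a summit counted only for the nearest coding start, efl-1, pcn-1, cdk-5 and cye-1 kept one (9.11% of all protein-coding genes did). In the promoter window efl-1, pcn-1 and cdk-5 did (6.24%). The summit that cye-1 kept is in its intron, 14 bp from the start of a tRNA gene, a kind of gene that this rule leaves out.

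Sequence under 4 of the summits that lie upstream of a start is shown, since these windows carry the summits nearest to the E2F gene, to the replication clamp and to both kinases with a promoter peak. Each is 200 bp centred on the summit, read 5′ to 3′ on the strand of the gene (the minus strand for all 4), from the RefSeq copy of WBcel235. Capitals mark matches to the words searched, which are given with their counts farther on. The windows are chrV:16965732-16965931 for efl-1, chrIV:4049597-4049796 for pcn-1, chrIII:13466327-13466526 for cdk-5 and chrX:13519200-13519399 for cdk-4.
efl-1: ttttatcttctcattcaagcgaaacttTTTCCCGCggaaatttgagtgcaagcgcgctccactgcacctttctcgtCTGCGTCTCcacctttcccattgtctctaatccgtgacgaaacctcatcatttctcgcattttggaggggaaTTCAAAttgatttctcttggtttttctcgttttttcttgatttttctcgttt
pcn-1: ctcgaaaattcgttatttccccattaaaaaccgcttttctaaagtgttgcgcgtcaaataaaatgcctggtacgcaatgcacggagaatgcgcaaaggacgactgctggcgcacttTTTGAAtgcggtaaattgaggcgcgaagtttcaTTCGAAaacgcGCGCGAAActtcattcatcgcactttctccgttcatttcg
cdk-5: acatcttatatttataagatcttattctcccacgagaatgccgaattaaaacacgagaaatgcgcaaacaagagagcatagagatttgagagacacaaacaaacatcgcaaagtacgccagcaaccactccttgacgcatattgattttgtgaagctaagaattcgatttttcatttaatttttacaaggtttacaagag
cdk-4: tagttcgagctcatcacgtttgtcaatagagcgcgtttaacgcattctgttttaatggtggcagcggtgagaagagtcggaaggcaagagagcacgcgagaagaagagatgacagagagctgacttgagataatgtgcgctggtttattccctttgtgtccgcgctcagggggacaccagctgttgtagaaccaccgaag
The last 16 bases of the cdk-5 window belong to its first exon, and no annotated exon reaches into the others. The windows held 42.0%, 45.5%, 35.5% and 50.5% G and C in this order, against a median of 43.5% over all IDR-thresholded windows.

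lin-35 (chrI:5807709-5815637, plus strand), the retinoblastoma gene, had 1 IDR-thresholded peak at chrI:5807282-5807625, 255 bp upstream of its start and between genes. The signal was 63.5 (rank 645 of 2305), with 36.3 in replicate 1 (rank 665 of 28101) and 29.9 in replicate 2 (rank 558 of 30000). The summit lay 163 bp from the start of vps-51, a subunit gene of a vesicle tethering complex that runs the other way, and the starts of these divergent genes are 418 bp apart. In replicate 2 the summit of the same peak was 201 bp upstream of lin-35, which there was the nearer start. Outside this site the replicate lists held only weak summits around lin-35, 2 in replicate 1 with signals of 4.36 and 4.98 and 5 in replicate 2 with signals from 3.91 to 8.64. All of them were below the lowest signal among the strongest 2305 peaks, which was 17.0 in replicate 1 and 12.8 in replicate 2.

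efl-1 (chrV:16958590-16965675, minus strand), which encodes the E2F partner, had its peak at chrV:16965660-16966003, 157 bp upstream. Its signal of 88.1 ranked 353 of 2305, with 43.1 in replicate 1 (rank 500) and 44.5 in replicate 2 (rank 257). Both replicate summits fell within 9 bp of each other, and efl-1 had the nearest start. The divergent F-box gene fbxa-90 starts 982 bp from the summit, so the peak is in its promoter window too. The pooled list held no other summit around efl-1, and the other replicate summits, 1 and 4 in number, did not exceed 5.45.

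dpl-1 (chrII:9169910-9172565, plus strand), which encodes the DP partner of EFL-1, had no IDR-thresholded summit. In the pooled list a peak of signal 13.7 (rank 6978 of 19646) lay 188 bp upstream, in an exon of the untranslated part of the overlapping gene T23G7.2. Replicate 1 placed it 240 bp upstream with a signal of 8.64 (rank 6889) and replicate 2 placed it 364 bp upstream with 5.95 (rank 9928). The strongest summit of replicate 2 was another one, 2423 bp past the start with 6.28 (rank 8965) and nearer the start of T23G7.2, so the replicates did not share their leading dpl-1 site. The dpl-1 signals near the start were above the median of each list (11.4 pooled, 5.86 in replicate 1 and 4.85 in replicate 2) but below the strongest 2305 peaks, among which lin-35 and efl-1 were in both replicates.

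The cyclin genes differed from each other. cyd-1 (chrII:12980591-12993117, plus strand), the cyclin D gene and the longest of the 10, had 5 pooled summits, none above 14.6. The highest lay 94 bp upstream (rank 6275 of 19646), with 7.17 in replicate 1 and 4.57 in replicate 2, and 3 of the others were in its introns. In replicate 1 the strongest of 8 summits was 2430 bp upstream (9.69) and in replicate 2 the strongest of 6 was 1885 bp upstream (6.52), so the replicates did not share their leading site there.

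cye-1 (chrI:6780799-6784397, plus strand), the cyclin E gene, had 2 IDR-thresholded peaks. The upstream one, at chrI:6780083-6780426 and 544 bp from the start, was the weakest of the 8, with a signal of 33.7 (rank 1807), 14.9 in replicate 1 (rank 2788) and 16.95 in replicate 2 (rank 1453). It lay 104 bp from the start of pqn-21, a divergent gene that starts 648 bp from cye-1. The stronger one, at chrI:6781617-6781960, lay in an intron of cye-1, 990 bp past the start, with a signal of 73.3 (rank 505).

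The intronic cye-1 peak had its summit 14 bp from the start of a tRNA gene of 72 bp that sits on the same strand in that intron (WBGene00022955, chrI:6781803-6781874). Of all IDR-thresholded summits, 100 (4.34%) lay within 100 bp of the start of a tRNA gene. The signal of this peak was 19.95 in replicate 1 (rank 1851) and 46.5 in replicate 2 (rank 232). The ratio of replicate 2 to replicate 1, 2.33, was at the 99.4th percentile of the 2293 IDR-thresholded peaks with a match in both lists, whose median was 0.728 and whose 5th to 95th percentiles ran from 0.325 to 1.43. For the 99 such peaks within 100 bp of a tRNA start the median ratio was 0.771 and the 95th percentile 1.39. The replicates therefore ranked this peak differently, though their summits were 33 bp apart. With 2 libraries it cannot be said which rank is typical.

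Of the kinase genes, cdk-4 (chrX:13515856-13518911, minus strand), the partner of cyclin D, had a peak at chrX:13519128-13519471, 389 bp upstream. The signal was 39.2 (rank 1420), with 13.8 in replicate 1 (rank 3173) and 24.1 in replicate 2 (rank 831). Replicate 1 had 2 separate summits under this peak, 247 bp and 448 bp upstream of cdk-4, the second with a signal of 7.16, while replicate 2 had 1, at 392 bp. Several replicate 1 peaks under 1 IDR-thresholded peak were found at 324 peaks (14.1%). The ratio of replicate 2 to replicate 1 was 1.75, at the 97.8th percentile. F18H3.1, which runs the other way and starts 752 bp from cdk-4, had the nearer start, 363 bp from the summit. For the stronger replicate 1 summit cdk-4 was nearer, at 247 bp against 505 bp.

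cdk-5 (chrIII:13464687-13466342, minus strand) encodes a kinase known for its work in neurons rather than in the cell cycle, and it had 2 IDR-thresholded peaks. The peak at its start, chrIII:13466255-13466598 with the summit 85 bp upstream, had a signal of 93.4 (rank 312), 48.5 in replicate 1 (rank 400) and 45.5 in replicate 2 (rank 241). The second, at chrIII:13465046-13465389 and 1124 bp past the start in an intron, had a signal of 58.4 (rank 740), 29.2 in replicate 1 (rank 986) and 27.8 in replicate 2 (rank 639). Both summits also lie in introns of kel-3 (chrIII:13464820-13471350), which overlaps cdk-5 on the plus strand. The second summit was 398 bp from the kel-3 start and so nearer to kel-3 than to cdk-5. The replicate summits of this peak were 1 bp apart.

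cdk-1 (chrIII:9747472-9748852, plus strand), the kinase of mitotic entry, had no IDR-thresholded summit and 1 pooled summit, 98 bp upstream, with a signal of 18.95 (rank 4114 of 19646). Both replicates held it near the start, with 8.96 at 98 bp in replicate 1 (rank 6405) and 9.57 at 53 bp in replicate 2 (rank 3786). A further summit of replicate 2, 2848 bp upstream with 8.02, had no counterpart in replicate 1 within the window. The cdk-1 peak thus lay near the same place in the pooled and replicate lists, with a pooled signal below the lowest IDR-thresholded one, 28.4.

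cki-1 (chrII:7811240-7812105, plus strand), the inhibitor of the p27 type, had no IDR-thresholded summit. Its strongest pooled summit, 1985 bp upstream, had a signal of 19.5 (rank 3948 of 19646), the highest among the 4 genes without an IDR-thresholded peak. The start of the non-coding RNA gene T05A6.15 was 52 bp from this summit and so far nearer than that of cki-1. The site returned in replicate 1 at 1982 bp (10.7, rank 4660) and in replicate 2 at 2062 bp (10.96, rank 3004). In the promoter window of cki-1, replicate 1 held 4.14 at 182 bp past the start and replicate 2 held 7.68 at 995 bp upstream (rank 5912). The pooled list held none there, while it held one in the promoter window of each of the other 9 genes (33.7% of all protein-coding genes).

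pcn-1 (chrIV:4047937-4049448, minus strand), the gene of PCNA, the sliding clamp of DNA replication and an S-phase gene, had the strongest of the 8 peaks. It lay at chrIV:4049525-4049868, 249 bp upstream and between genes, with a signal of 112.4 (rank 210 of 2305). Replicate 1 gave 65.9 (rank 207 of 28101) and replicate 2 gave 44.5 (rank 258 of 30000), with summits 10 bp apart. The other pooled summits around pcn-1, more than 3 kb upstream, had signals of 8.84 and 8.22 and lay nearer to wrt-5.

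**Figure D2:**
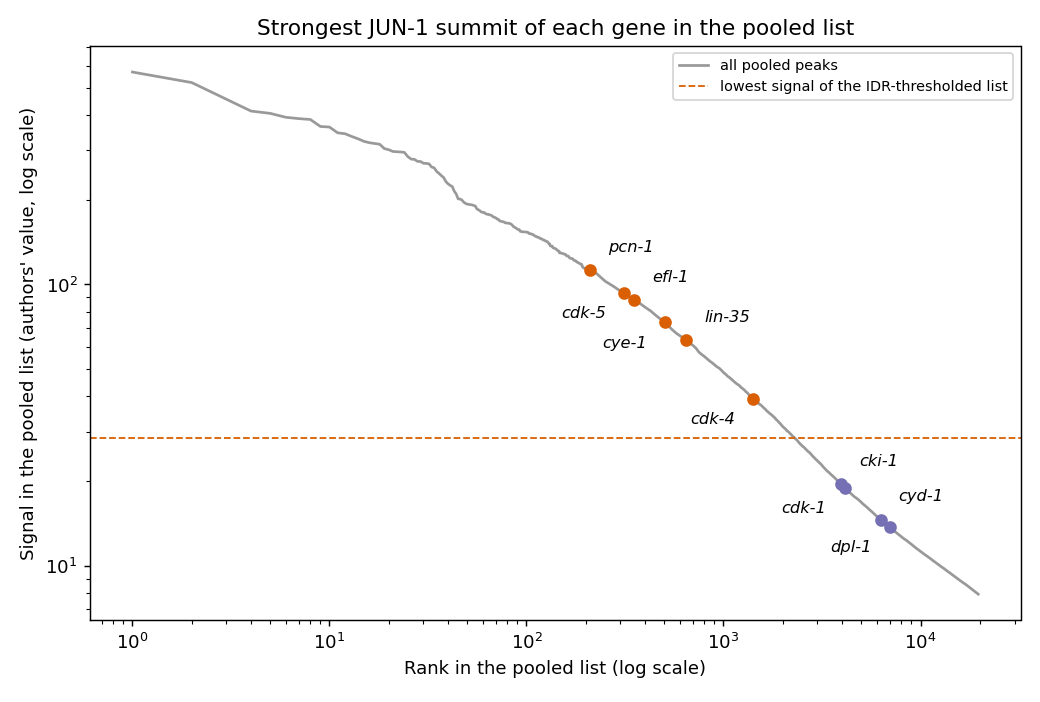
Signal of the strongest summit of each of the 10 genes against its rank in the pooled list (both axes on log scales); the line shows all pooled peaks and the dashed line the lowest IDR-thresholded signal, 28.4. pcn-1 leads at 112.4, cdk-4 is the lowest above the line at 39.2, and cki-1, cdk-1, cyd-1 and dpl-1 lie below it between 13.7 and 19.5.

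By strongest pooled summit the order was pcn-1, cdk-5, efl-1, cye-1, lin-35, cdk-4, cki-1, cdk-1, cyd-1 and dpl-1. The strongest cye-1 summit was the intronic one beside the tRNA gene, here and in both replicates. With 1 value per peak in the pooled list no spread can be put on neighbours in this order. The replicates ranked the strongest summits alike in part. pcn-1 was first in replicate 1 (65.9), but in replicate 2 cye-1 (46.5), cdk-5 (45.5), efl-1 (44.5) and pcn-1 (44.5) were close together. cdk-4 was above cki-1, cdk-1, cyd-1 and dpl-1 in both.

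All 10 genes had a summit of the pooled list in the window, as did 69.3% of all protein-coding genes, and all 10 had one of replicate 1 (80.3%) and of replicate 2 (84.5%). Overlapping peaks in both replicate lists, with both summits in the window, were found at all 10, but also at 54.7% of all protein-coding genes, and these lists include background. The strongest 2305 peaks of replicate 1 gave a summit to 5 of the 10 in the window (18.7% of all protein-coding genes) and to 4 in the promoter window (8.56%). Those of replicate 2 gave one to 6 in the window (18.2%) and to 6 in the promoter window (7.98%). Among the strongest 2305 peaks of each replicate, 5 of the 10 had such an overlap (13.8% of all protein-coding genes), namely lin-35, efl-1, pcn-1, cdk-5 and cye-1. For cye-1 it was at the intronic peak beside the tRNA gene. The windows held 26 pooled summits, 30 of replicate 1 and 43 of replicate 2, where the average rates of the chromosomes would give 18.003, 25.7 and 27.5. The start of another protein-coding gene was nearer for 12, 11 and 20 of these, and that of another gene of any kind for 16, 16 and 26. Over the 8 IDR-thresholded peaks the median ratio of replicate 2 to replicate 1 was 0.993, against 0.728 over all matched peaks. The strongest of the 8, that of pcn-1, was below the latter median at 0.675. The others were above it, up to 2.33 for the intronic cye-1 peak beside the tRNA gene. The median gap between replicate summits was 27.5 bp, against 26 bp over all matched peaks. Both replicates were called against 1 shared control alignment, so its part in their agreement was not tested.

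**Figure D3:**
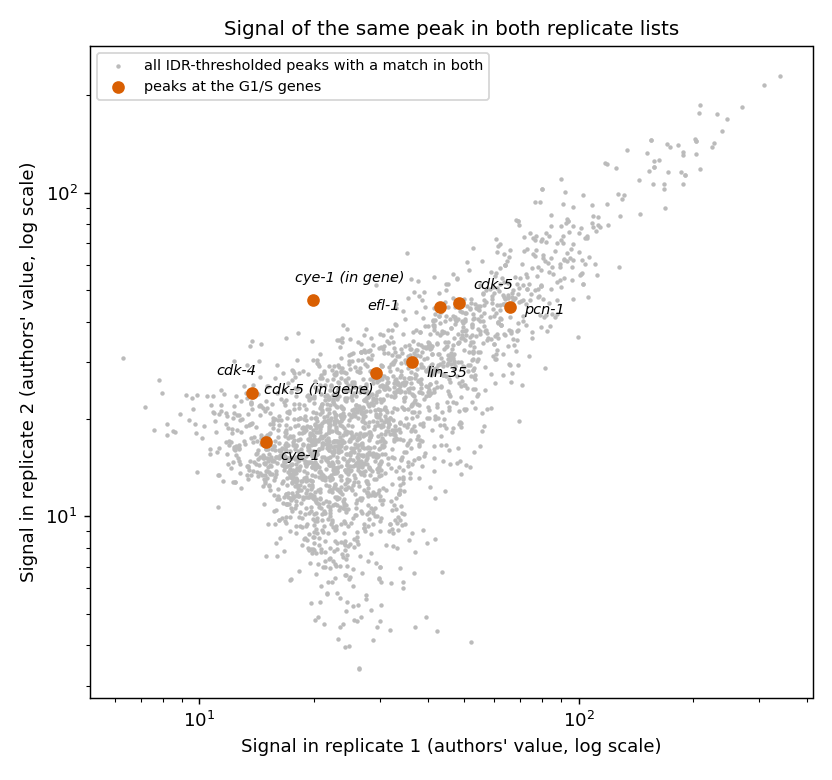
Signal of each IDR-thresholded peak in replicate 1 (x axis) and replicate 2 (y axis), both on log scales, for the 2293 peaks matched in both lists; the 8 peaks at the G1/S genes are marked. The intronic cye-1 peak (19.95 and 46.5) and the cdk-4 peak (13.8 and 24.1) lie toward the replicate 2 side of the cloud.

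Words of known regulatory elements were sought in the 200 bp windows of the 8 IDR-thresholded summits, on both strands. The E2F element, searched as TTTCGCGC, TTTGGCGC, TTTCCCGC and TTTGCCGC, was in 3 of the 8 windows, against 154 of all 2305 (6.68%). In windows of 100 bp it was in 1 of the 8 (3.56% of all) and in windows of 400 bp in 5 (10.5% of all). The upstream cye-1 window held TTTCGCGC and TTTGCCGC, the pcn-1 window TTTCGCGC and the efl-1 window TTTCCCGC, at 18.5 to 68.5 bp from the summit. In the pcn-1 sequence above, the last capitals are this word on the opposite strand.

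Other words were found in 0 to 3 of the 8 windows. The CHR element, which the LIN-54 subunit of the DREAM complex is known to bind, was searched as TTTGAA and TTCGAA. It was in 3 of the 8 windows, near its share of 37.2% over all windows. These were the same 3 as for the E2F element, but the share of all windows that hold both elements was not counted. CTGCGTCTC, a word that recurs in promoters of this species, was in the efl-1 window 19 bp from the summit and in the upstream cye-1 window 68 bp from it, against 15.3% of all windows. None of the matches overlapped another. The AP-1 word TGACTCA (4.90% of all windows), the CRE word TGACGTCA (1.52%), GAGAGAGA (13.4%) and the E-box CACGTG (7.90%) were in none of the 8. Matches and missing words describe only the letters in these windows.

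The other cell cycle genes were taken from 5 lists with 84 symbols, of which 83 were found in the annotation and 21 had an IDR-thresholded summit in the promoter window. One list held 6 genes for the DREAM complex, which joins the retinoblastoma and E2F-DP proteins to the MuvB core. It includes efl-2, which is not shown here to be a subunit. Of the 6, 3 had a promoter summit: lin-54 (signal 260, 350 bp upstream but nearer the ribosomal gene rpl-12), lin-53 (137, nearer nra-2) and lin-9 (124, 158 bp upstream). lin-52 had one only farther out, 1349 bp upstream with a signal of 32.2. Of 6 further synMuv B genes, which act with lin-35 in vulval fate, 3 had a promoter summit: lin-36 (74.2), lin-13 (46.9) and lin-15B (43.7). The share of all protein-coding genes was 8.42%, as above.

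Cyclin and kinase genes beyond the 10 had promoter summits at 3 of 17: wee-1.3 (71.4), an inhibitory kinase of CDK-1, cdk-7 (61.1) and cyb-1 (49.7), whose peak it shares with the nearer start of orc-5. Of 16 genes of cell cycle ubiquitin ligases 2 had one, lin-23 (92.1) and cul-4 (50.96, with 36.4 in replicate 1 and 8.89 in replicate 2). The replication machinery had 10 of 38, led by rfc-4 (154), a loader subunit of the clamp that pcn-1 encodes, orc-5 (49.7), mcm-10 (47.9) and pola-1 (45.8). The share of all protein-coding genes beside these IDR-thresholded counts was 8.42%. By the strongest 2305 peaks of replicate 2 alone the replication count was 6 of 38 (7.98% of all protein-coding genes). By those of replicate 1 alone it was 12 of 38 (8.56%). The promoter peaks of the replication list other than that of rfc-4 were thus weaker than that of pcn-1.

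**Figure D4:**
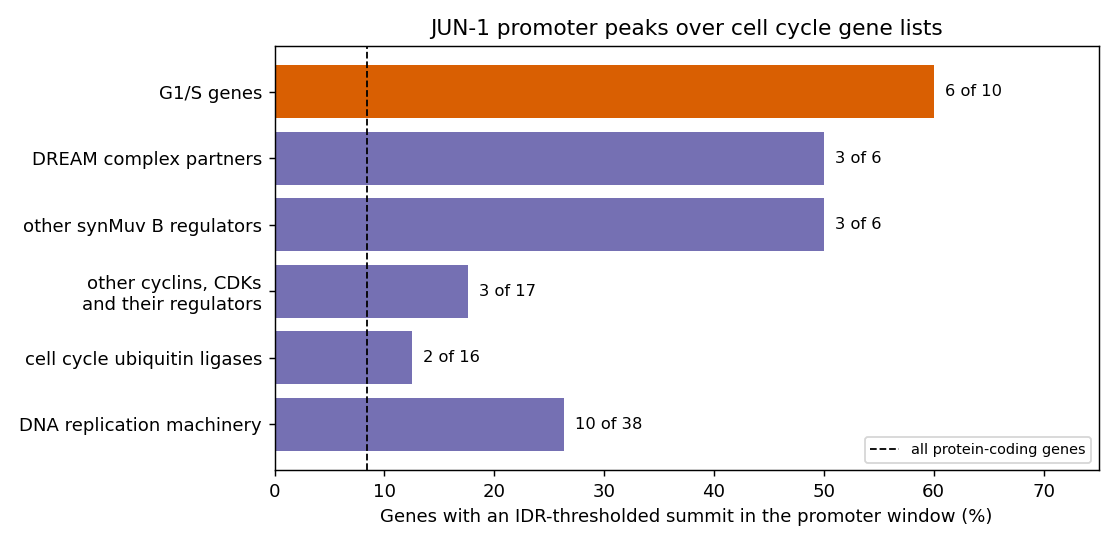
Share of genes with an IDR-thresholded summit in the promoter window, in percent, for the G1/S genes and the 5 other lists, with counts beside the bars; the dashed line is the share of all protein-coding genes, 8.42%. The lists are small, between 6 and 38 genes, and were chosen with earlier results of these data known.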

How the data were processed

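The authors deposited peak lists on ce11 with a signal per peak and a −log10 q-value per peak, which was 3.73 for every IDR-thresholded peak. Peaks were called on each replicate and on both pooled, with 1 control alignment shared, per the deposited notes on file provenance. Which aligner and caller were used, the cutoff of the IDR and how the signal was scaled is not given in the sources. Lists on ce10 were not used. A summit is the peak start plus the deposited offset. Summits were assigned with Python 3.11.15 and pandas 2.3.3 to nuclear protein-coding genes of Ensembl release 115. A peak of another list matched with an overlap of at least 1 bp, and the strongest was taken. Ranks are by signal, highest first. No statistical test was run. The counting of summits in windows was checked on simulated data against a direct count.

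The members, the other gene lists, the motif words and the alternatives were chosen with earlier results of these data known. Named beyond the members are the gene with the nearest start to a summit and, per other list, the 4 genes with the strongest promoter summits. Neighbours farther away, T23G7.2, T05A6.15, lin-52, efl-2 and the tRNA gene were named after their values were seen.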

Additional observations from a re-analysis of the deposited data

How the results depend on the processing

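The count of 6 genes with an IDR-thresholded summit in the window was 6 with windows from 2 kb or 1 kb upstream. Since none of the 10 genes had such a summit farther upstream than 1 kb, these windows could not change the count. Among the stronger 1152 peaks it was 5. No share of all protein-coding genes is given for these settings, so these counts are not set against a background. With each summit given only to the nearest coding start the count was 4 (9.11% of all protein-coding genes), with cye-1 kept by its intronic summit beside the tRNA gene. With the nearest start only, the number of summits moved from 8 to 4 and the promoter count from 6 to 3 (6.24%). The 2305 strongest peaks of a single replicate gave 5 to 6 genes (18.7% of all protein-coding genes for replicate 1, 18.2% for replicate 2). In the promoter window they gave 4 to 6 genes (8.56% and 7.98%) and 19 to 23 other cell cycle genes. They gave 6 to 8 summits in the windows. Thus cdk-4, and in the promoter window cye-1, were counted by the strongest 2305 peaks of replicate 2 only. Both peaks were in the replicate 1 list too, at ranks 3173 and 2788. The E2F element was in 1 of the 8 windows of 100 bp (3.56% of all) and in 5 of those of 400 bp (10.5% of all). The CHR element was in 1 of those of 100 bp (19.0%) and in 4 of those of 400 bp (65.4%). CTGCGTCTC was in 1 (11.2%) and in 2 (17.7%). Counting any annotated transcript start, an alternative added after seeing the data, gave 6 members and 21 other genes, with no share of all protein-coding genes beside them. Overlapping replicate peaks were found at 10 genes, and at 9 when summits had to lie within 100 bp (43.4% of all protein-coding genes), dpl-1 being the exception. The unknown depth limits what can be said of the 4 genes below the IDR threshold: their weaker peaks are not shown to be absent. No paired analysis was possible because the samples form 1 group.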

Other observations

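Of the 6 genes with an IDR-thresholded summit, lin-35, efl-1, cye-1 and cdk-4 lie head to head with a neighbour on the other strand, with 418 bp, 1139 bp, 648 bp and 752 bp between the starts. In 3 of these regions, all but that of efl-1, the neighbour's start was the nearer one to the IDR-thresholded summit, but lin-35 was nearer in replicate 2 and cdk-4 for the stronger summit of replicate 1. cdk-5 begins inside kel-3, and pcn-1 is read in the same direction as its upstream neighbour wrt-5.

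Farther from the starts, hpl-2, a heterochromatin protein gene of the synMuv B list, had an IDR-thresholded summit 3723 bp upstream with a signal of 389, nearer the start of tasp-1. The anaphase-promoting subunit gene emb-30 had one 2204 bp upstream (87.6, nearer pir-2). The summit at mcm-7, 200 bp upstream with a signal of 32.6 and 27.7 in replicate 1, had no overlapping peak in replicate 2. These genes were named after their values were seen.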
